A study of Mus musculus with 2 samples.

Results

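The peaks described here are the peaks of 5-hydroxymethylcytosine (5hmC) at the assembled chromosome starts of the mouse, from 3 to 5 Mb on chromosomes 1 to 19 of build mm10. A peak was included when its midpoint lay in that window, and no measured value was used in the choice. The rule took 1917 of 108395 peaks, or of 106034 on the autosomes. The other autosomal peaks to which they were compared, 104117 in all, lay from 5 Mb to the last peak or gene of each chromosome. The windows add up to 38 Mb and the rest to 2366 Mb.

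Mouse autosomes are telocentric: the centromere and its satellite repeats lie at the low-coordinate end and are not part of the assembled sequence. A gap of about 3 Mb stands for them. The window therefore holds the assembled DNA nearest to each centromere. The exact end of the gap on each chromosome was not checked, so distances below are from 3 Mb. TET enzymes make 5hmC by oxidising 5-methylcytosine, and the product can be an intermediate in the loss of methylation or a lasting mark. Prospermatogonia are foetal male germ cells, in which DNA methylation is laid down anew before birth, on repeats as well as on genes.

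The profile came from wild-type prospermatogonia at E17.5, late in gestation. Germ cells of several embryos, 30000 in all, were pooled and frozen, and 50 ng of their sheared DNA was used for 5hmC-Seal, in which 5hmC is tagged with a biotin-bearing glucose and captured on streptavidin. Captured DNA and DNA taken ahead of capture gave 1 library each, in batch 1, and the peak list of the former was used. The list holds no reads, so depth is unknown and the labelled cell type could not be checked against markers, and without a replicate no test across samples was possible. All intervals are 95% intervals of counting error only: exact Poisson for peaks per Mb, exact Clopper-Pearson for shares, and order-statistic intervals for medians. They treat neighbouring peaks as independent. The fold enrichment of a peak is the authors' ratio of captured signal to the background their peak caller assumed, and the −log10 q is the caller's own value. A peak is called confident below when its −log10 q was at least 5.

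Promoter sequences, of 250 bases before to 50 after a transcript start, were taken from RefSeq, build GRCm38.p6, which has the coordinates of mm10. They matched 475 of the 920 genes that lie wholly in the windows, with 618 promoters, and 335 of the 424 protein-coding genes. Capitals mark CG, the base pair step at which most methylation in mammals occurs; CG reads the same on both strands and was present in 94.7% of all autosomal promoters. The first 4 sequences are shown because they carried the promoter peaks of highest fold, and they range from 5 to 39 CG.
Gm52720 (chr4:3200250-3200549, minus strand, 8 CG): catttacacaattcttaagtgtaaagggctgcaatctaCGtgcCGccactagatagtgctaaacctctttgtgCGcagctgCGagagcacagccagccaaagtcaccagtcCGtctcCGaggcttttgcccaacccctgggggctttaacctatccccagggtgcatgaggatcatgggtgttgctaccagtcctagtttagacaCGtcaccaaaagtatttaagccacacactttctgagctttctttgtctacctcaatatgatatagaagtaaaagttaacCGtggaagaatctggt
Rab10os (chr12:3235541-3235840, plus strand, 39 CG): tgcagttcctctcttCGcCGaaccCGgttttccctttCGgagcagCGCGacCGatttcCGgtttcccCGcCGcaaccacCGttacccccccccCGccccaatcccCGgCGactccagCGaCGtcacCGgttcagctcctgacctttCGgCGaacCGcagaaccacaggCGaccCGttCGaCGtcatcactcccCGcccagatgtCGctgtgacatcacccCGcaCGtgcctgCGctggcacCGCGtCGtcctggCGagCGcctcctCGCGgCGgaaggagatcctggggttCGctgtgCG
Gm45957 (chr9:4138496-4138795, plus strand, 17 CG): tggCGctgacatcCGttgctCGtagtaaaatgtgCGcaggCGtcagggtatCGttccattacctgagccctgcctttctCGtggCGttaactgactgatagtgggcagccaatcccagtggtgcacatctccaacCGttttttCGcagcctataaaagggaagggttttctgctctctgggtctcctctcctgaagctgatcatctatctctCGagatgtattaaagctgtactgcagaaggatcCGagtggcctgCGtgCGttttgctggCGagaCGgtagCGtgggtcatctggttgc
Tnni3 (chr7:4522479-4522778, minus strand, 5 CG): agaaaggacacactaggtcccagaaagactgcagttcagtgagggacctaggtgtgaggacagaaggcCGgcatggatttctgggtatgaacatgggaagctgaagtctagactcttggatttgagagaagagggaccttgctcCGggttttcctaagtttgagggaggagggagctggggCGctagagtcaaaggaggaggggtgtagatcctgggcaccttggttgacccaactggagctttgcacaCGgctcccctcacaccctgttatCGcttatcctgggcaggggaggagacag
The next 2 are promoters of listed genes in the same windows on which no peak fell, for Dclre1c, a nuclease of DNA joining, and Suv39h2, a histone H3 lysine 9 methyltransferase of heterochromatin that is made mainly in the testis.
Dclre1c (chr2:3423881-3424180, plus strand, 12 CG): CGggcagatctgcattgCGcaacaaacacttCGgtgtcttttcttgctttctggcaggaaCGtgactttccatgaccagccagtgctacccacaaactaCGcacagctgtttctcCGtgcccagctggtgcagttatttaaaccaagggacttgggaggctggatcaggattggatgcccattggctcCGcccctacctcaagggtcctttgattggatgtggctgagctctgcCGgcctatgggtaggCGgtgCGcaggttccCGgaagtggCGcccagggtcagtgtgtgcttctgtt
Suv39h2 (chr2:3474937-3475236, minus strand, 33 CG): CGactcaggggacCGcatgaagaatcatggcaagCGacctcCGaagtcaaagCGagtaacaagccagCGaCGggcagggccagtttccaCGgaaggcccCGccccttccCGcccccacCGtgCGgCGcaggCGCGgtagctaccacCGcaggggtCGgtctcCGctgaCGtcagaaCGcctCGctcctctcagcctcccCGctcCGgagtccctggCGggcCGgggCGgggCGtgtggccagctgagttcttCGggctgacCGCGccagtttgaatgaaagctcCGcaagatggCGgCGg
Suv39h2, with 33 CG, and Rab10os, with 39, are alike in CG number and differ in their call. The peak on Rab10os, a noncoding RNA gene beside Rab10, ran from 3235057 to 3239275 with a fold of 5.85. The peak on the predicted gene Gm45957 had a fold of 5.37, and those on Gm52720 and on Tnni3, the cardiac troponin I gene, had folds of 6.16 and 5.15.

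The main feature of the chromosome starts was a higher number of confident peaks. There were 453 confident peaks among the 1917, 23.6% (21.7 to 25.6), where 11.9% of all autosomal peaks and 11.7% (11.5 to 11.9) of those in the rest of the chromosomes were confident. Per Mb, this came to 11.9 confident peaks (10.8 to 13.1) at the starts against 5.16 (5.07 to 5.25) in the rest, a ratio of 2.31. Peaks below that threshold were as dense at the starts, 38.5 per Mb (36.6 to 40.6), as in the rest, 38.9 (38.6 to 39.1). Counting all peaks, the starts had 50.4 per Mb (48.2 to 52.8) and the rest 44.0 (43.7 to 44.3), a ratio of 1.15. The surplus of peaks at the starts was thus one of confident peaks. In the weaker calls, which are most of the list, the starts did not stand apart in these pooled counts. The ratio of weaker calls per Mb, starts over rest, was lower as a median over chromosomes, 0.912, and in windows of like gene number, 0.872.

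Fold, width and coverage were higher at the starts as well. The median fold was 3.67 (3.5999 to 3.735) at the starts and 3.33 (3.33 to 3.34) in the rest, with middle ranges of 3.09 to 4.95 and 2.99 to 4.01. The upper quartile moved more than the lower, so the difference lay mainly in the upper part of the range. Among peaks in the top 10% of all autosomal folds, those of 5.43 or more, were 361 at the starts, 18.8% (17.1 to 20.7) of them, against 9.84% in the rest. Within the confident peaks the medians were alike, 6.18 at the starts and 6.18 in the rest. The upper tail was heavier at the starts: 14 confident peaks had a fold over 10, 3.09% (1.6997 to 5.13), against 149 in the rest, 1.22% (1.03 to 1.43). Peaks covered 5.30% of the start windows and 3.93% of the rest. The median width was 672 bp (645 to 712) against 638 bp (634 to 643). By chromosome, the median width was higher at the start on 12 of 19 and the covered share on 16.

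The next 2 Mb of each chromosome had an intermediate value. From 5 to 7 Mb there were 8.26 confident peaks per Mb (7.37 to 9.23), and 17.6% of the peaks were confident. The far end of the chromosome, its last 2 Mb, had 6.16 confident peaks per Mb (5.39 to 6.9995) and 38.3 peaks per Mb in all. For confident peaks, the interval of the starts overlapped neither of these.

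Confident peaks were most crowded next to 3 Mb. How reads with several map positions were counted is not given. Whether reads from unassembled repeats add to these peaks was not tested. In the first 100 kb, 47 of 89 peaks were confident, 52.8% (41.9 to 63.5), the median fold was 5.22, and 93.3% of the peaks lay outside genes. The share was 38.7% from 100 to 200 kb, 33.7% from 200 to 300 kb and 18.5% from 300 to 400 kb. Part of this fall lay in the other peaks, of which there were 22.1 per Mb in the first 100 kb, 35.8 and 31.1 in the next 2 bins and 51.1 from 300 to 400 kb, against 38.9 in the rest. Values per Mb count every base from 3 Mb on, so they are too low wherever the gap ends later. Each of the 19 chromosomes had a confident peak in the first 300 kb. That stretch held 120 confident peaks of 289, or 21.1 per Mb (17.45 to 25.17), against 10.3 per Mb (9.23 to 11.5) in the remainder of the window. The limit of 300 kb was not planned and lies where the share falls between bins. The distance between these intervals is therefore partly built in. After the first 300 kb the share rose and fell, from 34.3% at 700 to 800 kb, as high as at 200 to 300 kb, to 9.90% at 1100 to 1200 kb. In bins of 1 Mb it was 28.9% in the first, 18.7% in the second and between 15.7% and 25.7% in the next 8, all above the 11.7% of the rest. The edge of the window at 5 Mb is therefore no boundary in the data. The last peak inside it on each chromosome had a median fold of 3.42 (range 2.81 to 10.6), and the first peak outside it 3.65 (2.82 to 7.30).

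**Figure D1:**
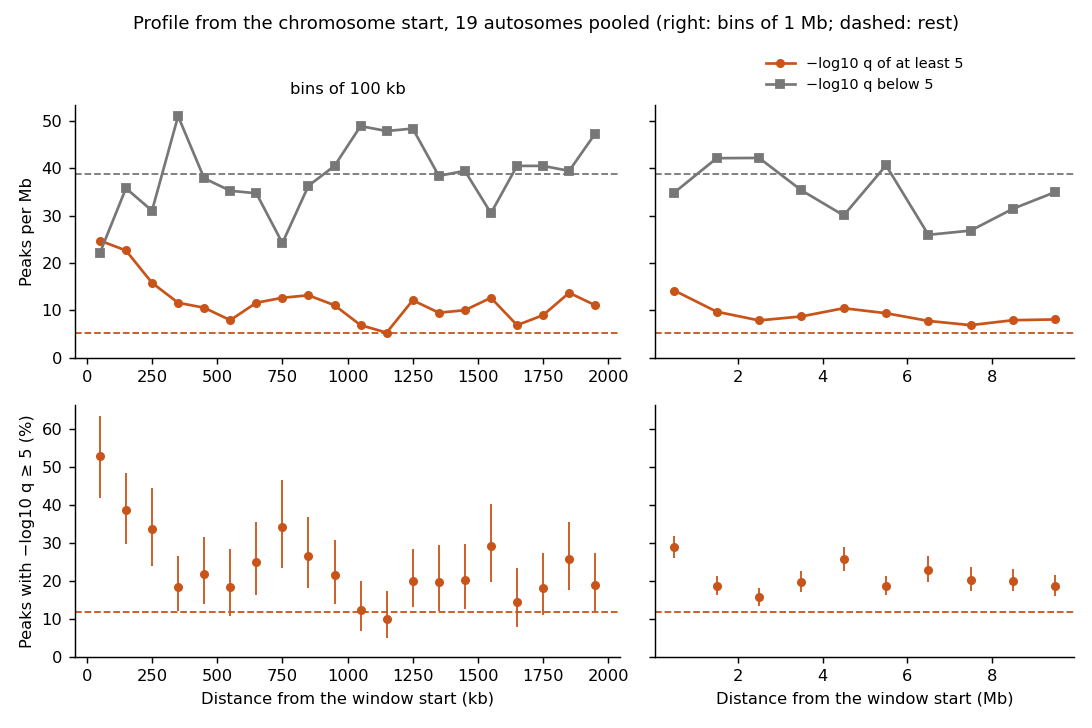
Peaks by distance from 3 Mb, pooled over 19 autosomes, in bins of 100 kb (left) and 1 Mb (right). The upper panels plot confident peaks (−log10 q of at least 5) and other peaks per Mb, and the lower panels the confident share in percent with exact 95% intervals; dashed lines are the rest of the chromosomes. The confident share starts at 52.8% and falls to 18.5% by 300 to 400 kb; other peaks lie below their dashed line in the first 300 kb, at 22.1 per Mb in the first bin, and on both sides of it after that.

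The first called peak lay close to 3 Mb on most chromosomes. Its distance from 3 Mb had a median of 21.1 kb, and 18 of 19 lay within 110 kb. On chromosome 14 it lay 278 kb away. Of these 19 first peaks, 10 were confident, and their folds ran from 2.22 to 7.68. Chromosome 12 had 7 confident peaks of 10 in its first 100 kb, a stretch with no protein-coding gene, and a median fold there of 7.74.

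**Figure D2:**
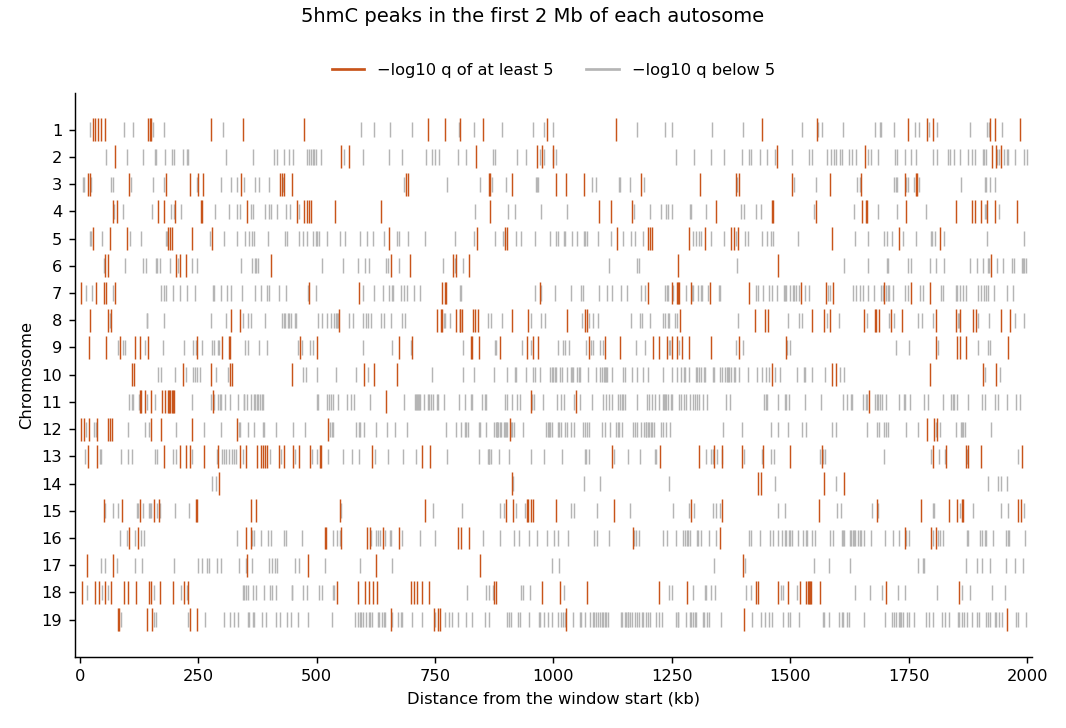
Every peak of the 19 chromosome starts, drawn at its distance in kb from 3 Mb, 1 row a chromosome, with tall coloured marks for confident peaks and short grey marks for the others. Coloured marks gather at the left edge on most chromosomes, and chromosome 14 has 18 marks in all.

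Chromosomes differed widely in the number of peaks at their starts. The start was denser than the rest on 12 of 19 chromosomes, where 43.4% of all 2 Mb windows were denser than their own chromosome. On 8 of these, 7, 8, 10, 11, 12, 13, 16 and 19, the intervals of start and rest did not overlap. Chromosome 19 had 90 peaks per Mb at its start against 53.9 in the rest, and chromosome 11 had 83.0 against 56.6. Chromosome 7 had 68.5 against 47.1 and chromosome 12 had 66.5 against 40.8. The start was thinner on the other 7, with intervals apart on chromosome 14, 9 per Mb against 35.6, and on chromosome 17, 24.0 against 54.7.

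**Figure D3:**
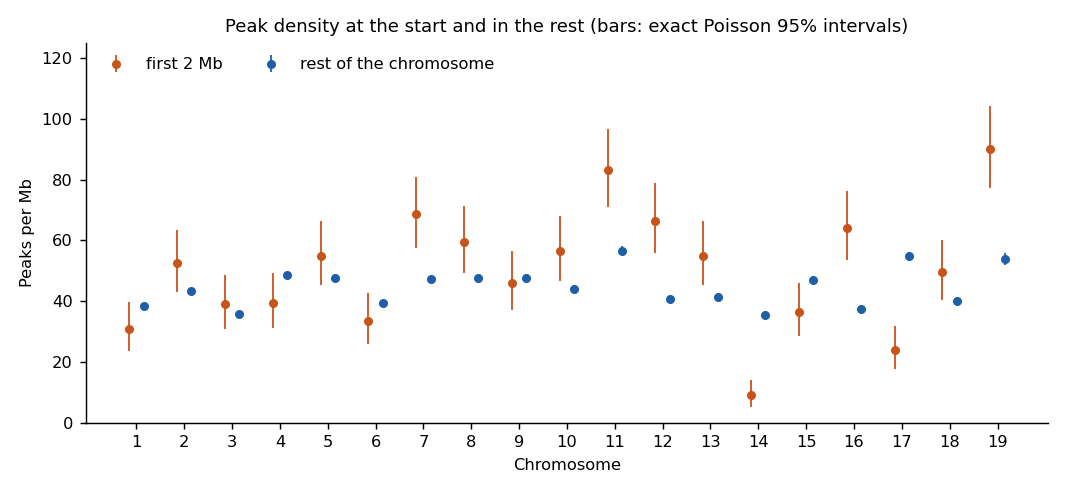
Peaks per Mb in the first 2 Mb and in the rest of each autosome, with exact Poisson 95% intervals. The starts range from 9 on chromosome 14 to 90 on chromosome 19, while the rest of the chromosomes stays between 35.6 and 56.6.

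Confidence was shared by nearly all chromosomes, unlike the total. The confident share was higher at the start on 18 of 19 chromosomes, and the median fold on all 19. The interval of the start's median fold lay above the median of the rest on 11 of them. Some differences were small, as on chromosome 19 with 3.29 against 3.28. Intervals of the confident share were apart on 9, namely 1, 3, 4, 5, 8, 9, 13, 15 and 18. The highest shares were 45.5% on chromosome 18, 43.0% on 4, 42.4% on 9, 41.1% on 15 and 40.3% on 1. Chromosome 19 was the exception, with 7.22% at the start and 8.76% in the rest. In numbers, 10 of the 19 start windows had over 19 confident peaks, a level passed by 8.47% of all 1192 windows of 2 Mb. The start was the window with the most confident peaks on its chromosome for 6 of them, 4, 8, 9, 13, 15 and 18. The median was 24 confident peaks in a start window and 9 in another.

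The 2 thin starts differed in their genes. Chromosome 14 had 32 protein-coding genes in its window, 30 of them predicted genes with a Gm symbol, and 0 had a peak within 1 kb of an end. Its 18 peaks left a gap of 618 kb, yet 6 of them were confident, with folds of up to 9.78 in the noncoding genes 1700110I01Rik and Gm46491 and 9.71 in Gm3164. Chromosome 17 had 7 protein-coding genes and 48 peaks, 7 of them confident, and one of these was the peak of highest fold of all starts, in Tiam2.

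Peak number and the confident share went opposite ways with gene density. Across the 19 starts, Spearman's rho was 0.70 between protein-coding genes per Mb and peaks per Mb (0.87 over 18 without chromosome 14), and −0.57 between genes per Mb and the confident share. These are descriptions over windows of 1 library. The share divides by all peaks, which rose with gene density, so a falling share is partly built in. It does not show that confident peaks became fewer, and no rho was computed for confident peaks per Mb. The 6 starts with the highest confident shares had 0.5 to 7.5 genes per Mb and 53.2% to 98.7% of their peaks outside genes. The 6 with the lowest shares had 3.5 to 33.0 genes per Mb and 19.3% to 50.0% of their peaks outside genes.

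**Figure D4:**
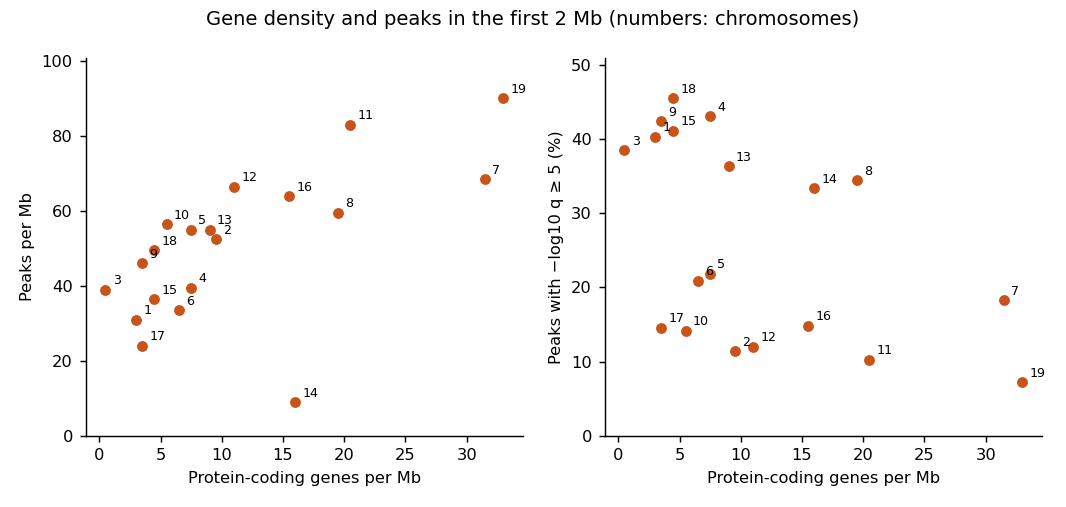
Protein-coding genes per Mb against peaks per Mb (left) and against the share of confident peaks in percent (right) in the first 2 Mb, 1 point for each of 19 chromosomes, numbered. The left panel rises (rho 0.70), with chromosome 14 below the others, and the right panel falls (rho −0.57).

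Pooled over chromosomes, the starts were somewhat richer in genes, 11.2 protein-coding genes per Mb against 8.51 in the rest. On most chromosomes, however, the start was poorer in genes than the rest. It was richer only on chromosomes 7, 8, 11, 12, 13, 14, 16 and 19. Because gene number differed in this way, windows of like gene number were compared. Among 2 Mb windows with 0 to 9 protein-coding genes, 6 starts had 37.7 peaks per Mb (34.3 to 41.3) and 528 other windows 25.2, with confident shares of 38.9% and 20.03%. With 10 to 19 genes, the starts had 48.7 and the others 49.7 peaks per Mb, and confident shares of 24.0% and 9.88%. With 20 to 39 genes, the starts were thinner, 49.8 against 64.6 per Mb, and still more often confident, 20.6% against 8.29%. With 40 or more, the densities were 80.5 and 76.6 and the shares 11.4% (8.69 to 14.6) and 7.37%. When the rest was weighted to the gene numbers of the starts, the ratio of all peaks per Mb was 1.02 and that of confident peaks per Mb was 2.31. For all peaks, this ratio averages classes that differ in opposite directions, while the confident share was higher at the starts in all 4 classes.

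Pooled over chromosomes, fewer of the peaks at the starts lay in genes. The share outside genes was higher at the start on 12 of 19 chromosomes and lower on the others. It ran from 16.7% on chromosome 14 to 98.7% on chromosome 3. In all, the midpoints of peaks at the starts were outside any gene and its 1 kb flanks in 879 cases, 45.9% (43.6 to 48.1), against 36.0% in the rest. Inside genes were 865, 45.1% against 55.5%, and within 1 kb of a gene's end 173, 9.02% (7.78 to 10.4) against 8.53%. The confident share was higher at the starts in each position. It was 37.9% (34.7 to 41.2) outside genes against 21.7% in the rest, 10.5% (8.56 to 12.8) inside genes against 5.98%, and 16.8% (11.5 to 23.2) at gene ends against 6.70%. The 333 confident peaks outside genes were 73.5% of all confident peaks at the starts.

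**Figure D5:**
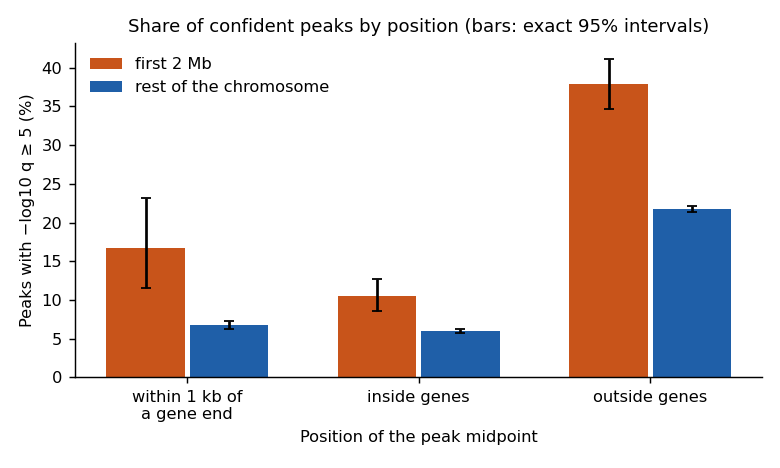
Share of peaks with a −log10 q of at least 5, in percent, by the position of the peak midpoint, for the first 2 Mb and the rest of the chromosomes, with exact 95% intervals. The start bar is the higher in all 3 positions and reaches 37.9% outside genes.

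Very wide peaks were also more frequent. There were 33 peaks over 5 kb, 1.72% (1.19 to 2.41), where 0.541% of all autosomal peaks and 0.520% of those in the rest were as wide. They fell on 14 chromosomes, and 20 of the 33 lay within the first 500 kb. Of the 33, 25 lay outside genes, 75.8% against 49.4% of wide peaks in the rest. Their median width was 6.23 kb, near the 6.40 kb of wide peaks in the rest. In length, 10 of the 33 were 6 to 7 kb, a count not made for the rest. The widest, 38.3 kb on chromosome 9, began 8 bases past 3 Mb and had a −log10 q of 594 at a fold of 5.24. Whether reads from unassembled repeats add to this peak was not tested. Without it, the covered share of that start falls from 7.60% to 5.69%, and that of all starts from 5.30% to 5.20%. The others were at most 9.84 kb. Among them were chr9:3939082-3948919, which is 33.3 kb from Gucy1a2, a guanylate cyclase subunit gene, and chr13:3611508-3620866, which overlaps Tasor2, a paralogue of the HUSH complex subunit Tasor. Another, chr4:3173560-3182666, lay 0.557 kb from the vomeronasal receptor gene Vmn1r2.

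The peaks of highest fold came from genes and from gene-free DNA alike. The highest fold at the starts, 18.04, lay inside Tiam2, an activator of the small GTPase Rac, at chr17:3352508-3353453. The next, 15.5 at chr8:3803091-3803910, covered Rprl3, annotated as a gene for the RNA of RNase P, which trims transfer RNA precursors. A peak of 14.6 at chr5:3236453-3236863 lay on the transcribed pseudogene Gm15772. Of the 10 highest, 5 lay outside genes, where 45.9% of all peaks at the starts did. Among these 5 was chr8:4446508-4447346 with a fold of 12.7, 45.5 kb from the ceramide synthase gene Cers4. On single chromosomes the highest fold ran from 7.48 to 18.04, and 11 of these 19 peaks lay outside genes.

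Sfi1, a gene for a centrosomal protein, carried the most compact group of confident peaks. It lies at the start of chromosome 11, and 10 of the 12 peaks with midpoints in it were confident. Their folds were not all high, with a median of 3.73 and a range of 2.46 to 14.7. The peak at chr11:3191972-3195161 had a −log10 q of 440, and its neighbour at chr11:3190422-3190911 one of 110. Only 12 autosomal peaks passed 100, and the third of them at a chromosome start was the 38.3 kb peak on chromosome 9, with 594. Without Sfi1, the confident share at the start of chromosome 11 falls from 10.2% to 4.55%, below the 7.43% of the rest of that chromosome. The higher share on chromosome 11 thus rested on 1 gene. How reads that map to several places were counted is not given in the sources used here, and pseudogene Gm11400 lies within the same gene, so the split of signal between like copies is uncertain.

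Other 100 kb bins also held groups of confident peaks. On chromosome 13, 7 of 14 peaks from 300 to 400 kb were confident, in a bin without a protein-coding gene. On chromosome 18, 7 of 8 peaks from 1500 to 1600 kb were confident, in the bin of Jcad, an endothelial junction gene. On chromosome 9, 7 of 10 were confident in the bin of Aasdhppt, a phosphopantetheinyl transferase gene. Of the 380 bins, 346 held a peak, 213 a confident peak and 17 at least 5 confident peaks. Such counts were not made for bins in the rest, so whether groups of this size are more frequent at the starts is not known.

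Gene ends at the starts were marked about as often as elsewhere. A peak lay within 1 kb of either end in 114 of 424 protein-coding genes, 26.9% (22.7 to 31.4), where 27.9% of all autosomal protein-coding genes and 27.95% of those in the rest had one. Median folds at these ends were 3.35 and 3.31. Chromosome 19 gave 32 of its 66 genes and chromosome 7 gave 24 of 63, while chromosomes 1, 3 and 14 gave 0. Of predicted protein-coding genes with a Gm symbol, 3 of 41 had such a peak (7.32%, 1.54 to 19.9), against 15.2% in the rest. Of long noncoding RNA genes 50 of 195 had one (25.6%, 19.7 to 32.4, against 30.6%), and of pseudogenes 58 of 242 (24.0%, 18.7 to 29.9, against 22.8%). Each of these 3 intervals contained the value of the rest. Of 7 zinc finger genes with a Zfp symbol 0 had one (0 to 41.0%), against 24.9% in the rest. Of 3 vomeronasal receptor genes 2 had one (9.43% to 99.2%), against 3.45%.

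Over gene spans, coverage was lower. Among 354 protein-coding genes of 5 kb or more, the median share of the span under peaks was 3.11%, against 4.30% in the rest. The most covered genes were Smtn, for the smooth muscle protein smoothelin, at 45.9%, and Map2k7, a kinase of the JNK pathway, at 45.2%. Next came Cabp2, a calcium-binding protein gene, at 41.7%, and Tbx10, a T-box transcription factor gene, at 39.2%. Peg10, Grk2, Gpr152, Patz1 and Aldh3b1 were covered over 37.7% down to 32.2%. Of these 9 genes, 5 lie at the start of chromosome 19. The most peaks, 26, lay in Mthfd1l, a mitochondrial folate enzyme gene, followed by 21 each in Dnmt3a and Osbp2 and 20 in Frmd4a.

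The highest folds at gene ends were 7.37 beside Vmn1r238 and 6.66 at Sec14l4, a lipid-binding protein gene. They were 6.18 at Rpl28, a ribosomal protein gene, 6.16 at Gm52720 and 5.83 at Tasor2. Beside Vmn1r2 the fold was 5.76, beside Kbtbd3 and Shcbp1 it was 5.34, and Tnni3 and Dnaaf3, an assembly factor of ciliary dynein, shared 1 peak of 5.15. The peaks of Vmn1r238, Vmn1r2, Kbtbd3 and Shcbp1 lay wholly outside the genes. Those beside both vomeronasal receptor genes were 8.2 and 9.11 kb wide.

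The genes of the list drawn up for these windows numbered 36, besides Esr1 and Arid1b, which cross 5 Mb, and Klf6 and Epc1, which lie outside. Of the 36, 5 had a peak at an end, where 114 of all 424 protein-coding genes had one. On their span 28 of the 36 had a peak, against 263 of the 424. Gene length was not matched, and the list holds long genes such as Xkr4, of 472 kb, and Gria4, of 378 kb. Among 5 genes of chromatin and DNA methylation, 0 had a peak at an end and 4 had peaks inside. Dnmt3a, the de novo DNA methyltransferase, had 21 peaks over 14.5% of its span, with a top fold of 5.52. Kmt5b, a histone H4 lysine 20 methyltransferase, had 5 peaks over 6.45%. Crebbp, a histone acetyltransferase, had 7 over 4.83%, and Asxl2, a Polycomb-associated gene, 2 over 0.635%. Suv39h2 had 0 peaks.

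The 3 imprinted genes all lie on chromosome 6. Peg10, a retrotransposon-derived gene expressed from the paternal copy, and Sgce, epsilon-sarcoglycan, are neighbours. One peak, chr6:4747422-4749321, had a fold of 3.75. It lay on Peg10 and within 1 kb of the side of Sgce that faces Peg10. Calcr, the calcitonin receptor gene, had 1 peak of fold 6.32 over 5.63% of its span and none at an end.

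Of 7 signalling genes, Lrp5 stood out in number, with 18 peaks over 20.7% of its span and a fold of 3.26 at an end. Lrp5 is a co-receptor of Wnt. Insr, the insulin receptor gene, had 2 peaks and Ghr, the growth hormone receptor gene, 4. Lif, a cytokine gene, had 2. Fzd1, a Wnt receptor gene, Pomc, the hormone precursor gene, and Lyn, a tyrosine kinase gene, had 0. Of the transcription factor genes, Plag1 had 2 peaks, and Sox17, of endoderm and germ cell precursors, and Crem, of round spermatids, had 0. Mos, the kinase of oocyte arrest, also had 0, and Nf2, a Hippo pathway gene, had 6. The 4 neuronal genes all had peaks inside: Tiam2 12, Plekhg1 10, Xkr4 7 and Gria4 5.

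Promoters at the starts were seldom under a peak. Of the 618, 22 were, 3.56% (2.24 to 5.34), where 6.09% of all autosomal promoters and 6.14% of those in the rest were. The share went with the number of CG. It was 3 of 197 with 0 to 3 CG, 13 of 121 (10.7%, 5.85 to 17.7) with 4 to 9, 4 of 139 with 10 to 19 and 2 of 161 with 20 or more. In the rest the shares were 4.07%, 14.99%, 5.89% and 0.397%. The same middle class was the highest in both, and the promoter of Rab10os, printed above, is 1 of the 2 marked promoters in the class richest in CG.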

How the data were processed

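The file used was the list of broad peaks of the captured library. Per the submitters' processing notes, peaks and reads were handled with MACS2 2.1.0, bedtools 2.27.1, Bowtie2 2.5.0, SAMtools 1.16.1, deepTools 3.5.1 and Trim Galore, on build mm10. No source used here gives the settings, the treatment of reads with several map positions, or whether the library before capture served as a control. For each peak the authors deposited a fold enrichment (a ratio to the caller's background), a −log10 p, a −log10 q and a score. The −log10 p and score were not used in results. The lowest −log10 q of an autosomal peak was 1.01. There are 0 columns of other samples.

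Peaks were placed by midpoint, first at gene ends (1 kb on each side), else inside genes, else outside, with a RefSeq gene table of GRCm38.p6; 328 autosomal genes that start in the opening gap were left out. Promoters had strand; the gene table was used without it. The named peaks are the 10 highest and 5 widest, with the highest of each chromosome; the named genes are the list, and, for each of gene-end fold, covered share and number of peaks, the top 10, of which 1 gene is not reported here. Groups of confident peaks in 100 kb bins, Sfi1 and chromosome 14 were chosen after their values were seen. The limit of 300 kb was not planned either. The members and lists were chosen with earlier results of these data known. No p-values were computed. Calculations used Python 3.11.15, NumPy 2.4.6, pandas 2.3.3, SciPy 1.17.1 and Matplotlib 3.10.9, and the scripts were tested on simulated data. Alternatives were other thresholds, window limits, position weights, medians over chromosomes and leaving out each chromosome.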

Additional observations from a re-analysis of the deposited data

How the results depend on the processing

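The ratios and differences below set the chromosome starts against the rest. Of 113 values under alternatives other than leaving out a chromosome, 83 stayed within a band around the reported value, 29 moved and 1 changed sign. The band was the counting interval of the starts, with the value of the rest held fixed. Covered share has no interval of its own, so the relative limits of peaks per Mb were used for it. For the number of chromosomes with a denser start, a wide band of 8 to 18 was set. That number, 12 as reported, was 17 with a −log10 q of at least 3 or 5. It was 9 with the window from 3 to 8 Mb, and all these counted as unmoved. The measures of confident and less confident peaks per Mb, the like-gene windows, the position weights and the fit without the widest peak were added after seeing the data. With a −log10 q of at least 3, the ratio of peaks per Mb was 1.87, of covered share 2.32 and of the share in the top 10% by fold 1.41. With at least 5, they were 2.31, 2.80 and 1.20, the difference in median width was 112 bp and in the share outside genes 6.69 percentage points, and the difference in median fold was −0.00271. With the window from 3 to 4 Mb, the ratio was 1.47 for covered share, 2.46 for confident share, 2.75 for confident and 0.898 for less confident peaks per Mb, and 2.34 for the top 10% share. The median fold then differed by 0.508, the share outside genes by 14.96 points and the share of genes with a gene-end peak by −6.48 points, from −1.06. With the window from 3 to 8 Mb, peaks per Mb gave 1.07, covered share 1.23 and confident peaks per Mb 2.01. From 3.1 to 5 Mb, the share outside genes differed by 7.54 points. As medians over chromosomes, the ratios were 1.22 for peaks per Mb, 2.23 for confident share, 2.05 and 0.912 for confident and less confident peaks per Mb, and 2.13 for the top 10% share. Windows of like gene number gave 1.02 for all peaks and 0.872 for less confident peaks per Mb. With position weights, the confident share gave 1.78 and the top 10% share 1.68. For each value that moved, the cause was not tested. Leaving out each chromosome gave 1.31 to 1.42 for covered share, 0.298 to 0.402 for the fold difference, 0.933 to 1.03 for less confident peaks per Mb, 8.08 to 12.3 points for the share outside genes and 2.20 to 2.41 for confident peaks per Mb. The gene-end difference ran from −4.94 points without chromosome 19 to 1.01 without chromosome 14.

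No paired analysis was possible because the files used here hold 1 library. Depth is unknown, so a start with few peaks cannot be told apart from one with few usable reads, and the error of single folds is not known.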

Other observations

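Cdk6, a kinase of the G1 phase, had 15 peaks over 8.68% of its span, and Limk2, a kinase of actin turnover, 11 over 13.2%. Hspa14, a ribosome-associated chaperone gene, had 5 over 21.0%, with a fold of 3.82 at an end. Among genes named for their number of peaks, Adcy3, an adenylate cyclase gene, had 15 over 17.51%, and Akap12, an anchor of protein kinase A, 14 over 14.96%, with top folds of 3.92 and 3.802. Gria4, a glutamate receptor gene of 378 kb, had a top fold of 7.44 with 0.920% covered, and Xkr4, of 472 kb, one of 7.49 with 2.52% covered. Rp1, a photoreceptor gene of 294 kb, had 7.35 with 1.32% covered. Plekhg1, of 227 kb and with 2.91% covered, had 4.25, and Insr, of 129 kb and with 1.26% covered, 3.602. Among well-covered genes, Lrp5 had a top fold of 6.72, Smtn 4.36 and Map2k7 3.79. Trap1, a mitochondrial chaperone gene of 37.9 kb, had 0 peaks, and so had Lyn, of 114 kb, and Crem, of 71.4 kb.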
